A study of Mus musculus with 86 samples.

Results

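Sham lung and sham kidney were compared gene by gene in mice that had received DMSO, in a study of tissue scarring and of MERTK, a receptor tyrosine kinase with which phagocytes take up dying cells. The members were chosen by their tissue labels and by their treatment labels or titles: 3 lung and 3 kidney libraries, together 6 of the 86 samples of the series. All 6 are labelled wild type. The 3 lung libraries carry the treatment label sham with DMSO injection. The 3 kidney libraries were assigned by their titles, which read sham (normal) and DMSO. DMSO is the solvent of the MERTK inhibitor UNC569. The sham libraries of wild-type mice given UNC569, 3 of lung and 3 of kidney and assigned by their titles, were set beside them. Strain, age, sex, dose, the days since surgery and what the sham procedure was in lung are not given in the labels used here. The protocol speaks of biological replicates without tying a library to an animal, the labels do not say whether a lung and a kidney came from the same mouse, and the columns name a group but not a sample. The p-values measure only the spread between these libraries. RNA came from whole tissue, and in all that follows fewer cells of a type and less RNA per cell cannot be told apart.

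The lung exchanges gas across alveoli lined by flat alveolar type 1 cells and by type 2 cells, which secrete surfactant; its airways are lined by club cells, which secrete protective proteins and metabolise foreign compounds, and by ciliated cells, which move mucus. The kidney filters blood in its glomeruli, recovers solutes in the proximal tubule, a segment that lives on fatty acids and makes glucose, and then sets salt, water and acid in the thick ascending limb, the distal convoluted tubule and the collecting duct. Each cell type is held in its state by a small set of transcription factors, and Hox genes mark the position along the body from which an organ arose.

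Levels are FPKM (fragment counts normalised to the length of the gene and the size of the library), rescaled so that every library sums to 1000000 over the 38277 genes that both tables list, and are called scaled FPKM. Differences are lung minus kidney on the scale log2(scaled FPKM + 1), written log2, with the SE and the adjusted p of limma, n = 3 libraries a group. Per-library values are in the order of the columns, libraries 0, 1 and 2, and where both organs are given lung comes first unless stated; values in brackets are the log2 difference ± SE followed by the adjusted p. The lung and kidney values come from separate tables that were normalised separately, so organ and table cannot be told apart in any level set side by side here. The number of reads behind an FPKM value is unknown.

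Of the 38277 genes, 15419 reached 1 scaled FPKM in at least 3 of the 6 libraries and were tested. Of those, 8694 (56.4%) were higher in lung and 2465 (16.0%) were higher in kidney at an adjusted p under 0.05. A log2 difference of at least 3, which is 8-fold, was reached by 1011 genes higher in lung (6.56%) and by 519 higher in kidney (3.37%). All 3 lung libraries lay above all 3 kidney libraries for 9106 genes (59.1%), and the reverse held for 2637 (17.1%). At the ends of the range, 322 genes had at least 1 scaled FPKM in every lung library and were listed at 0 in every kidney library, and 203 genes showed the opposite.

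The middle of the comparison moved with the scaling. The median log2 over the genes tested was 0.83 (quartiles -0.09 and 1.66) with equal sums, and 0.02 with median-of-ratios factors, under which 4772 genes (31.3%) were higher in lung and 4892 (32.1%) in kidney. The share of calls that were higher in lung was 77.9% with equal sums and 49.4% with median-of-ratios factors. Of the genes at least 8-fold apart, 1001 of 1011 were still called higher in lung and 519 of 519 higher in kidney. A log2 of 0.83 is therefore the level of the typical gene here, and a direction that turned with the scaling is named as such beside its value. Counts of list members are to be read beside the shares of all genes tested. These were 56.4% higher in lung and 16.0% in kidney with equal sums, and 31.3% and 32.1% with median-of-ratios factors. A gene below 1 scaled FPKM in every library of 1 organ could pass the filter only through the other organ. The direction of such a gene was set by the filter.

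A few genes filled much of each library. Scgb1a1, the secretoglobin of club cells, alone made up 17.7, 20 and 10.5% of the 3 lung libraries, and the largest gene of kidney, Kap, made up 6.38, 6.66 and 5.97% of its libraries. Transcripts encoded in mitochondria took 8.61, 7.91 and 6.97% in lung and 26.9, 23.7 and 14.3% in kidney.

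**Figure D1:**
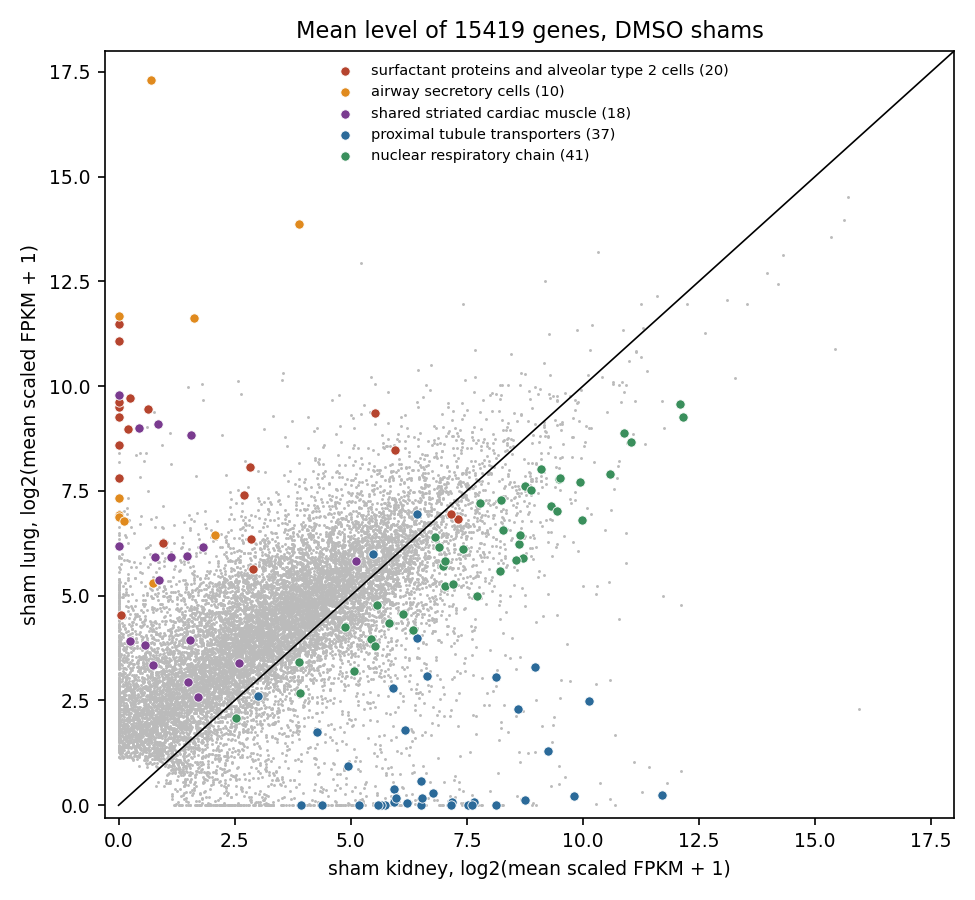
Mean level of each of the 15419 genes tested in the 3 sham kidney libraries (x axis) and the 3 sham lung libraries (y axis), both as log2(mean scaled FPKM + 1), with the line of equal levels. Members tested of 5 gene lists are coloured: most surfactant and airway genes and cardiac genes lie along the y axis near 0 in kidney, most proximal tubule transporters lie near 0 in lung, and respiratory chain genes lie below the line at high levels in both organs.

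The libraries were not equally alike. Lung libraries 0 and 1 differed from each other by a median of 0.102 log2 over genes above 20 scaled FPKM, against 0.142 to 0.469 in the 29 other pairs of sham libraries of 1 organ. They shared high levels of cardiac muscle, fat and large airway genes that lung library 2 lacked. Tested genes of these 3 kinds that rest on the pair are therefore given with both counted apart and with both averaged into 1 sample ("pair averaged", chosen after the data were seen). For other genes that were high in the pair the average is given only where stated. In kidney, libraries 0 and 2 held genes of hepatocytes: the 14 genes of that list summed to 65.3 to 544 in kidney and 8.28 to 21.7 in lung, and albumin (Alb) stood at 64.0, 1.87 and 67.7 in kidney. Immediate early genes, which respond within minutes to stimulation of a cell, also moved with the organ: 12 of 13 tested were higher in lung, beside 56.4% of all genes (8 of 13 with median-of-ratios factors, beside 31.3%), and their summed level was 2014 to 3753 in lung and 389 to 892 in kidney. The part of any of these in the organ differences was not tested.

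The defining markers went with the labels. The alveolar genes Sftpc and Ager and the club cell gene Scgb1a1 stood at 285 or more in every lung library and below 1 in every kidney library. The proximal tubule gene Slc34a1 and the thick ascending limb gene Umod stood at 365 or more in every kidney library and below 0.3 in every lung library.

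**Figure D2:**
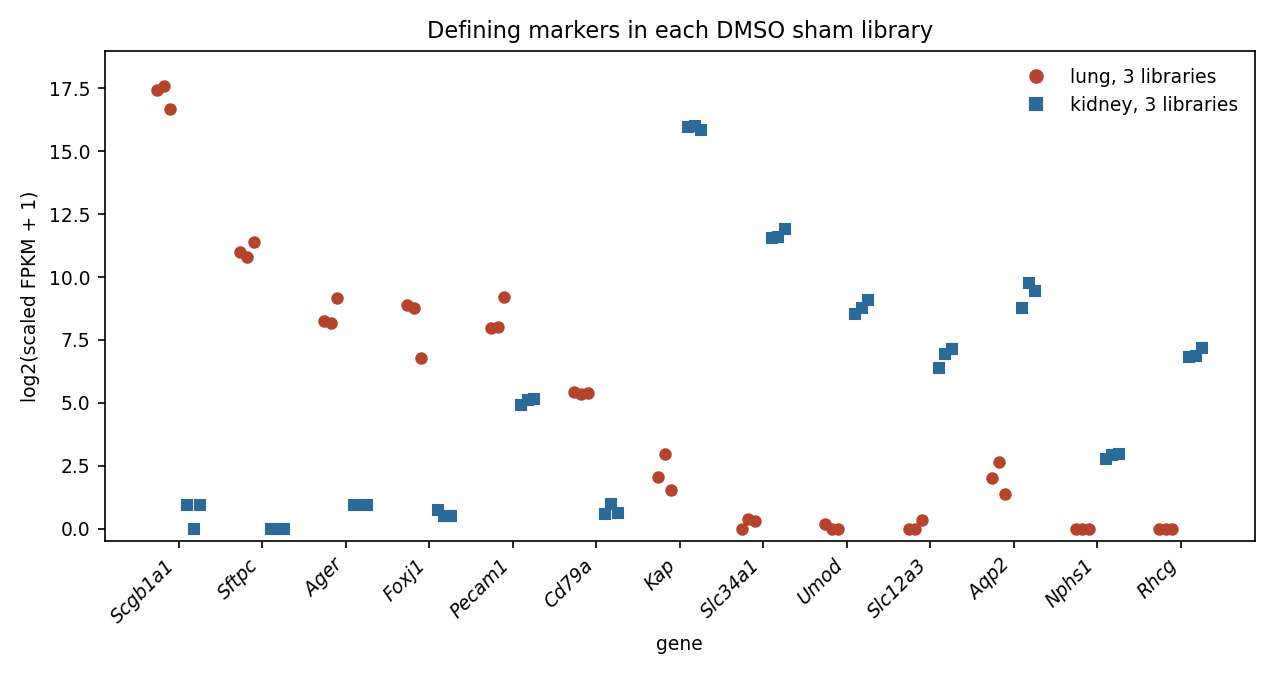
Level of 13 markers as log2(scaled FPKM + 1) on the y axis in each DMSO sham library, with circles for the 3 lung libraries and squares for the 3 kidney libraries. Lung and kidney points do not overlap for any of the 13 genes; Foxj1 was lower in 1 lung library, at 109 scaled FPKM, than in the other two, at 434 and 474.

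Surfactant lowers the surface tension of the alveoli, and type 2 cells make both its lipids and its proteins. Of 20 genes of the type 2 list that were tested, 18 were higher in lung, 16 of them at least 8-fold, and 1 was lower, against 56.4% and 16.0% of all genes tested; the median log2 was 6.60. Sftpa1, a surfactant collectin that binds microbes, stood at 2867, 2918 and 2790.1 in lung and at 0 in every kidney library (log2 11.48 ± 0.14, adjusted p = 8.6e-09). Sftpc, the surfactant protein by which type 2 cells are known, was at 2018, 1800.4 and 2658 in lung and at 0 throughout kidney (11.06 ± 0.18, 1.4e-08). The lung libraries varied by less than 2-fold in these genes and shared no value with kidney.

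The surfactant protein that spreads the lipid film, Sftpb, was at 725, 685 and 776 in lung and at 0 in all kidney libraries (9.51 ± 0.15, adjusted p = 1.4e-08). The bases before its RefSeq start are shown because they hold the core letters of the site of NKX2-1, the lung factor described further on, on GRCm38.p6 at chr6:72304360-72304609, plus strand; capitals mark CTCAAG. The stretch overlaps no exon of the GENCODE annotation, and the matches begin 100 and 15 bases before the start.
Sftpb: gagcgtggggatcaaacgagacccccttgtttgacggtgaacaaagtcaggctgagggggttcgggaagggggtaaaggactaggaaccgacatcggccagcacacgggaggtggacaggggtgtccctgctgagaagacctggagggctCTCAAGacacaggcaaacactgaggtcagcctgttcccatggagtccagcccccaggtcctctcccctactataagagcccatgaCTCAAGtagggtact

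The other surfactant genes followed. Sftpd, the second surfactant collectin, was at 582, 631 and 634 in lung and 0 in kidney. The chemokine Cxcl15 was at 736, 719 and 887 in lung and 0 in kidney, and the lysosome-like membrane protein of surfactant granules, Lamp3, was at 208, 203 and 262 and 0. Slc34a2, the phosphate carrier of type 2 cells, was at 637, 649 and 809 in lung and 0.630, 0.477 and 0.521 in kidney, where its paralog Slc34a1 was the abundant one. Chi3l1, a chitinase-like protein, was at 833, 873 and 819 in lung and 0.413, 0.167 and 0 in kidney. Lyz1, a lysozyme of type 2 cells whose sequence is close to that of Lyz2 so that the 2 genes can share reads, was at 440.1, 460.4 and 599 in lung and at most 0.447 in kidney.

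Lipid enzymes of the list were less one-sided. Scd1, a fatty acid desaturase, was at 815, 775 and 390.3 in lung and 48.8, 42.2 and 44.7 in kidney (3.77 ± 0.28, adjusted p = 1.5e-05), and lung library 2 was the lowest of the lung libraries. Lpcat1, which makes the main surfactant lipid, was at 251, 242 and 317 and 6.44, 6.04 and 5.73 (5.25 ± 0.17, 2.0e-07). Against the side of the list, Abca3, which loads lipid into surfactant granules, was at 109, 113 and 118 in lung and 145, 142 and 185 in kidney (-0.46 ± 0.16, 0.027); its adjusted p was 0.08 with the pair averaged and 0.0754 to 0.0908 without lung library 0, lung library 1 or kidney library 2, and in the UNC569 shams its difference was 0.04.

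Type 1 cells cover most of the alveolar surface. Of their 18 list members, all tested, 16 were higher in lung, 14 of them at least 8-fold, and 1 was lower, with a median log2 of 5.17. Ager, the receptor that marks these cells, was at 301, 285 and 573 in lung and 0.921, 0.941 and 0.892 in kidney (7.58 ± 0.27, adjusted p = 3.9e-07). The water channel Aqp5 was at 627, 618 and 767 and 0.774, 1.34 and 0 (8.70 ± 0.30, 3.2e-07). Hopx, a homeodomain protein without DNA binding, was at 959, 898 and 1528 in lung and 10.4, 12.2 and 8.73 in kidney, and Gprc5a, a retinoic acid-induced receptor, at 689, 695 and 1308 and 4.74, 5.75 and 5.06. Lung library 2 was the highest of the lung libraries in each of these genes. The growth factor Vegfa, which type 1 cells supply to capillaries, was nearer in level, at 822, 845 and 1447 in lung and 313, 340 and 341 in kidney (1.59 ± 0.23, 0.00044). Against the side of the list, Timp3, an inhibitor of metalloproteinases, was lower in lung, at 288, 294 and 429.7 against 639.8, 429 and 559 (-0.69 ± 0.22, 0.022); the adjusted p was 0.08 with the pair averaged and 0.0668 to 0.0827 without lung library 0 or 1 or kidney library 0 or 2.

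Club cells gave the largest difference among the abundant genes. Scgb1a1 was at 177496, 199884 and 104613 in lung and 0.918, 0 and 0.916 in kidney (16.61 ± 0.33, adjusted p = 2.9e-08), and lung library 2 was the lowest of the lung libraries. Cbr2, a carbonyl reductase of the airway, was at 16867, 16486 and 11177 and 9.82, 15.1 and 16.2 (9.98 ± 0.24, 5.8e-08). The P450 enzyme of club cells, Cyp2f2, was at 4031, 3959 and 1466 and 1.35, 1.32 and 3.55 (9.94 ± 0.43, 1.0e-06). Of 16 airway secretory genes, 10 passed the filter on low values; the other 6 reached 1 scaled FPKM in lung libraries 0 and 1 alone.

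Genes of the large airways were carried by the pair. Scgb3a1, a secretoglobin of the upper airway, was at 4919, 4802 and 8.08 in lung and 0 in kidney (9.23 ± 2.15, adjusted p = 0.005; pair averaged 7.71 ± 2.20, 0.017). The UNC569 sham lungs were at 6.03, 1283 and 195. Bpifa1, a secreted lipid-binding protein of the nose and trachea, was at 2509, 2431 and 0 in lung and 0 in kidney, and the gel-forming mucin Muc5b at 57.7, 59.8 and 0.262 and 0; neither was tested. Lung libraries 0 and 1 were high in all 3 and library 2 was low or at 0. Of the 5 genes tested of the airway basal and neuroendocrine list, 0 were higher in lung and 1 was higher in kidney under both scalings. The cardiac and fat genes described below were high in the same libraries.

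Motile cilia beat in the airways, whereas tubule cells of the kidney bear a single non-motile cilium. All 18 motile cilia genes tested were higher in lung, 14 of them at least 8-fold, with a median log2 of 4.38. Over all genes tested 56.4% were higher in lung, 6.56% at least 8-fold. Members at 0 in kidney, such as Tmem212, Tekt4 and Cdhr3, passed the filter on low values through lung, so their direction was set by the filter. Foxj1, the master factor of motile cilia, was at 474, 434 and 109 in lung and 0.691, 0.417 and 0.412 in kidney (7.56 ± 0.51, adjusted p = 9.8e-06; pair averaged 7.22 ± 0.54, 6.8e-05). Tppp3, a protein that bundles microtubules, was at 1336, 1332 and 1166 and 8.42, 10.1 and 13.5 (6.79 ± 0.19, 1.1e-07). The membrane protein Tmem212 was at 153, 162 and 39.1 in lung and 0 in kidney, and the tektin of cilium microtubules, Tekt4, at 47.8, 42.8 and 13.7 and 0. Except for Tppp3, lung library 2 was far below the other lung libraries in these genes, and over the whole list the lung libraries summed to 2504, 2451 and 1475.

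Cdhr3, a cadherin of ciliated cells, was at 40.8, 44.2 and 10.5 in lung and 0 in kidney (4.80 ± 0.49, adjusted p = 7.4e-05). With the pair averaged its difference was 4.48 ± 0.53 (adjusted p = 0.00037). The bases before its RefSeq start are shown because they hold part of the X-box, the site of the RFX factors that act with FOXJ1, on GRCm38.p6 at chr12:33092876-33093125, minus strand; capitals mark TGGCAAC, the reverse complement of GTTGCCA. The stretch overlaps no GENCODE exon, and the match begins 7 bases before the start.
Cdhr3: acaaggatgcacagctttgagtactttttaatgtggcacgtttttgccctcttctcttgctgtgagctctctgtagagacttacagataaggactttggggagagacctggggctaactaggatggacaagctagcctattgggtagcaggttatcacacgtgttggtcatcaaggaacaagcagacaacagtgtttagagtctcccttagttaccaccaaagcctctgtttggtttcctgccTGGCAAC

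Of 19 transcription factors of lung that were tested, 18 were higher in lung, 14 of them at least 8-fold, and none was lower, with a median log2 of 4.22. Nkx2-1, the factor that specifies lung epithelium, was at 376, 385 and 395 in lung and 0 in every kidney library (8.59 ± 0.15, adjusted p = 2.3e-08), with the smallest relative spread of the lung factors named here. The pioneer factor of foregut endoderm Foxa2 was at 129, 108 and 103 and 0.458, 0.161 and 1.23 (6.19 ± 0.27, 9.8e-07), and Foxa1 at 101, 109 and 39.99 and 1.12, 3.02 and 0.623. Sox2, a factor of conducting airways, was at 108, 106 and 25.4 in lung and 0 in kidney. Mesenchymal factors of lung were as one-sided: Foxf1, needed for lung vessels, was at 225, 224 and 534 and 0.106, 0.688 and 0.0990 (7.89 ± 0.36, 1.4e-06), and the T-box factors Tbx4 and Tbx5, which start lung budding, stood at 51.5, 55.4 and 119.5 and at 30.5, 30.1 and 41.1 in lung and at or below 0.0798 in kidney. Foxj1 and Sox2 were high in the close pair, and Foxf1 and Tbx4 were highest in library 2.

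Both organs are rich in vessels, and the endothelial lists ranged from one-sided to mixed. Of 19 lung capillary genes, all tested, 18 were higher in lung and 1 was lower, with a median log2 of 3.69, 12 of them at least 8-fold. Over all genes tested 56.4% were higher in lung, and 6.56% at least 8-fold. Tmem100, a membrane protein that acts downstream of BMP receptors, was at 311, 305 and 802 in lung and 1.499, 0.902 and 1.08 in kidney (7.63 ± 0.37, adjusted p = 1.7e-06). The receptor of adrenomedullin, Calcrl, was at 184, 167 and 349 and 5.81, 3.28 and 2.94 (5.51 ± 0.33, 5.2e-06). Epas1, the hypoxia factor of endothelium, was at 741, 744 and 1321 and 49.5, 57.4 and 58.4 (4.01 ± 0.24, 5.6e-06). Against the side of the list, the membrane carbonic anhydrase Car4, present on capillaries of lung and on tubules of kidney, was at 181, 177 and 269.7 and 325, 342 and 428 (-0.82 ± 0.21, 0.0079).

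Genes of all endothelium were higher in lung in 17 of 18 cases and lower in 1, with a median log2 of 2.52 (13 and 1 with median-of-ratios factors). The share of all genes tested that were higher in lung was 56.4% (31.3% with those factors). The adhesion protein Pecam1 was at 249.7, 255 and 594 in lung and 29.04, 33.2 and 34.7 in kidney (3.34 ± 0.32, adjusted p = 5.4e-05), the tight junction protein Cldn5 at 1071, 956 and 2311 and 79.2, 122 and 113, and the cadherin Cdh5 at 249, 256 and 623 and 18.3, 20.9 and 21.6. The sialomucin Emcn was lower in lung, at 23.3, 29.6 and 41.3 against 43.6, 58.0 and 51.6 (-0.71 ± 0.23, 0.023). Its adjusted p was 0.07 with the pair averaged and 0.064 to 0.0852 without lung library 0 or 1 or kidney library 1 or 2, and in the UNC569 shams it was higher in lung (1.25). Lung library 2 was the highest lung library in each of these genes. Of 12 genes of renal and glomerular endothelium, 5 were higher in lung and 4 in kidney (3 and 4 with median-of-ratios factors). The share of all genes tested that were higher in kidney was 16.0% (32.1% with those factors). In this list Ehd3, a membrane-bending protein of glomerular capillaries, was at 9.88, 11.2 and 22.3 in lung and 35.8, 32.1 and 41.8 in kidney (-1.36 ± 0.30, 0.0036), and Plvap, the protein of fenestral diaphragms, was higher in lung, at 587, 559 and 1595 against 217, 265 and 309, but did not pass with median-of-ratios factors (0.71, adjusted p = 0.114). The UNC569 shams showed no such difference in Ehd3 (adjusted p = 0.993).

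Immune genes leaned to lung. Lyz2, the lysozyme of macrophages and of type 2 cells, was at 7418, 7174 and 9064 in lung and 34.4, 38.9 and 35.3 in kidney (7.72 ± 0.16, adjusted p = 3.1e-08), the largest difference of the 17 general macrophage genes. Of those 17, 14 were higher in lung and 0 in kidney, but with median-of-ratios factors 8 were higher in lung and 2 in kidney, so the direction of the weaker members rested on the scaling. The receptor of colony stimulating factor, Csf1r, did not pass, at 27.8, 22.5 and 32.3 and 17.5, 27.6 and 20.4 (0.33 ± 0.22, 0.21), and turned to the side of kidney with median-of-ratios factors (-0.55, 0.04). Of 17 alveolar macrophage genes tested, 14 were higher in lung and 2, Car4 and the proton pump subunit Atp6v0d2 (-1.29), in kidney (13 and 2 with median-of-ratios factors). The ribonuclease Ear2 was at 82.1, 80.5 and 128 and 1.31, 0.813 and 0.688 (5.64 ± 0.24, 1.0e-06), and the chitinase-like Chi3l3 at 71.4, 67.9 and 50.0 and at most 0.155.

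Lymphocyte genes were at low levels and were higher in lung in nearly every case tested: 12 of 13 B cell genes, 15 of 17 T cell genes and 12 of 12 genes of NK and cytotoxic cells, with none higher in kidney. Beside them 56.4% of all genes tested were higher in lung. With median-of-ratios factors 11 of 14 T cell genes were higher in lung and 1 in kidney, and the B cell and NK cell counts stood as before. Cd79a, a part of the B cell receptor, was at 42.03, 39.6 and 40.5 in lung and 0.482, 0.947 and 0.544 in kidney (4.66 ± 0.20, adjusted p = 9.7e-07), and the immunoglobulin chain Ighm at 125, 130 and 103 and 3.99, 9.20 and 6.84. The T cell factor Tcf7 was at 23.1, 24.6 and 45.2 and 1.08, 1.18 and 0.532 (4.00 ± 0.30, 1.6e-05), and the cytotoxic protease Gzma at 18.5, 21.2 and 27.99 and at most 0.554. All 10 MHC class II genes were higher in lung under both scalings; Cd74, their chaperone, was at 829, 777 and 1036 in lung and 208, 390.1 and 305 in kidney (1.58 ± 0.25, 0.00062). The platelet chemokine Ppbp, at 54.0, 45.03 and 48.1 in lung and 0.221, 2.19 and 1.45 in kidney, and the erythroid list, 9 of whose 10 tested genes were higher in lung, were on the same side. The erythroid genes summed to 5794, 5943 and 8936 in lung and 1199, 2857 and 1064 in kidney; the part of blood left in the tissue was not tested.

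Matrix genes were higher in lung, most of them by more than the median gene. Of 20 fibroblast genes, 17 were higher in lung and 1 in kidney with a median log2 of 2.75, and of 17 elastic fibre genes tested 16 were higher in lung and 0 in kidney with a median of 2.71 (14 and 1 with median-of-ratios factors). Over all genes tested 56.4% were higher in lung (31.3% with those factors). Mfap4, a glycoprotein bound to elastic fibres, was at 786, 788 and 1777 in lung and 3.62, 4.49 and 6.75 in kidney (7.47 ± 0.35, adjusted p = 1.4e-06). Mgp, the matrix protein that blocks calcification, was at 4718, 4889.9 and 7818 and 432, 731 and 566 (3.32 ± 0.27, 2.4e-05), and the collagen chain Col1a1, the main fibrillar collagen of scars, at 74.5, 74.4 and 90.8 and 5.40, 9.52 and 8.69 (3.21 ± 0.23, 1.2e-05). Elastin itself, Eln, was listed at only 2.59, 1.996 and 4.26 in lung and 0.192, 0.325 and 0 in kidney (1.72 ± 0.28, 0.00073), far below the proteins that assemble it. The 1 fibroblast gene higher in kidney was Gpx3, the plasma glutathione peroxidase that proximal tubules also make, at 1691, 1728 and 2295 in lung and 42780.4, 37429 and 52372 in kidney (-4.54 ± 0.23, 2.3e-06).

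Cardiac muscle genes of lung are kept apart from the lung genes. The 51 genes of the atrial, ventricular and shared cardiac lists summed to 8379, 8426 and 439 scaled FPKM in lung, which is 0.838, 0.843 and 0.0439% of the libraries, and to 66.3, 83.1 and 93.1 in kidney. The difference of the means was 5667, and 4352, 4328 and 8322 without lung library 0, 1 or 2 and 4340 with the pair averaged (two-sided exact permutation test, p = 0.1, the smallest that 3 against 3 can give). Of the UNC569 sham lungs 1 was as high: their sums were 475, 8554 and 557, and those of the UNC569 sham kidneys 61.2, 91.1 and 67.4. Sums of 8379 or more came in 3 of the 6 sham lung libraries and in none of the 6 sham kidney libraries.

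The single genes were high in the same libraries. The atrial myosin heavy chain Myh6 was at 488, 516 and 1.97 in lung and 0.427, 0.596 and 0.126 in kidney (6.05 ± 1.76, adjusted p = 0.014; pair averaged 4.82 ± 1.81, 0.047); without any 1 of the kidney libraries its adjusted p was 0.0502 to 0.0574. The hormone of the atria, Nppa, was at 1505, 1539 and 1.26 and 2.21, 0.502 and 2.78 (6.05 ± 2.25, 0.039). For Nppa lung library 2 lay within the kidney range. Its adjusted p was 0.12 with the pair averaged and 0.0935 to 0.124 without lung library 0 or 1 or any kidney library. It was 0.0738 without the filter on low values, 0.0693 with median-of-ratios factors and 0.0572 from the deposited values. With sums without the most abundant 100 genes it was 0.0562, and with the UNC569 shams in the fit 0.0693. The atrial light chain Myl4 was at 706, 826 and 13.3 in lung and 0.292, 0 and 1.31 in kidney (7.14 ± 1.39, 0.002; pair averaged 6.19 ± 1.44, 0.0072). Sln, a regulator of the calcium pump, was at 566, 586 and 2.58 and 0 (6.73 ± 1.75, 0.0084; pair averaged 5.51 ± 1.79, 0.028), and myoglobin, Mb, at 1319, 1316 and 4.75 and 0 (7.75 ± 1.86, 0.0059; pair averaged 6.44 ± 1.91, 0.02). All 3 passed in either form. Cardiac actin, Actc1, was at 738, 693 and 97.6 and 0, 0 and 1.05 (8.19 ± 0.74, 3.9e-05; pair averaged 7.71 ± 0.78, 0.00021), and the inhibitory troponin Tnni3 at 689.6, 657 and 25.1 and 1.57, 1.03 and 3.27 (6.34 ± 1.14, 0.0013; pair averaged 5.56 ± 1.18, 0.0049). In every one of these genes libraries 0 and 1 were at least 7 times library 2.

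Of 9 ventricular genes 5 were tested, of which 3 were called higher in lung, beside 56.4% of all genes tested. The ventricular light chain Myl2 was listed at 0 in all 6 libraries, as was the atrial Bmp10, and Myh7, the heavy chain of ventricle and slow muscle, stood at 3.88, 7.35 and 5.33 in lung. Myl7, an atrial light chain, was listed at 1.98, 0 and 0 in lung although other atrial genes were abundant. Troponin Tnnt2 was at 91.9, 86.4 and 1.20 in lung and 0, 1.30 and 0.834 in kidney (4.01 ± 1.31, adjusted p = 0.023), with an adjusted p of 0.075 with the pair averaged and 0.0599 to 0.0972 without lung library 0 or 1 or any kidney library. Of the 31 cardiac genes tested in the 3 lists, 23 were called higher in lung, and 19 with the pair averaged. With median-of-ratios factors 5 of 8 atrial, 1 of 3 ventricular and 12 of 18 shared cardiac genes were called higher in lung. Beside them 31.3% of all genes were higher in lung with those factors. Skeletal muscle genes were near 0: 6 of 18 were listed at 0 in all 6 libraries, Myh4 among them, and the list summed to 16.6 to 22.2 in lung.

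Fat genes were high in the same lung libraries. Adiponectin, Adipoq, was at 136, 155 and 0 in lung and 0, 8.04 and 0 in kidney (3.73 ± 1.87, adjusted p = 0.1), and adipsin, Cfd, at 554, 550 and 0.607 and 0.697, 46.7 and 0.462 (4.01 ± 2.32, 0.15). Lung libraries 0 and 1 and kidney library 1 were the high ones, and neither gene passed. With the pair averaged they were at 2.54 ± 1.96 (adjusted p = 0.28) and 2.60 ± 2.46 (0.37); without lung library 2, which leaves only that close pair in lung, both passed (6.13, adjusted p = 0.00231, and 6.82, 0.0085). The 12 fat genes summed to 148 to 1729 in lung and 157 to 304 in kidney. Leaving the cardiac, skeletal and fat list genes out of the sums and of the test gave 8733 genes higher in lung and 2457 higher in kidney, beside the 8694 and 2465 with them.

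**Figure D3:**
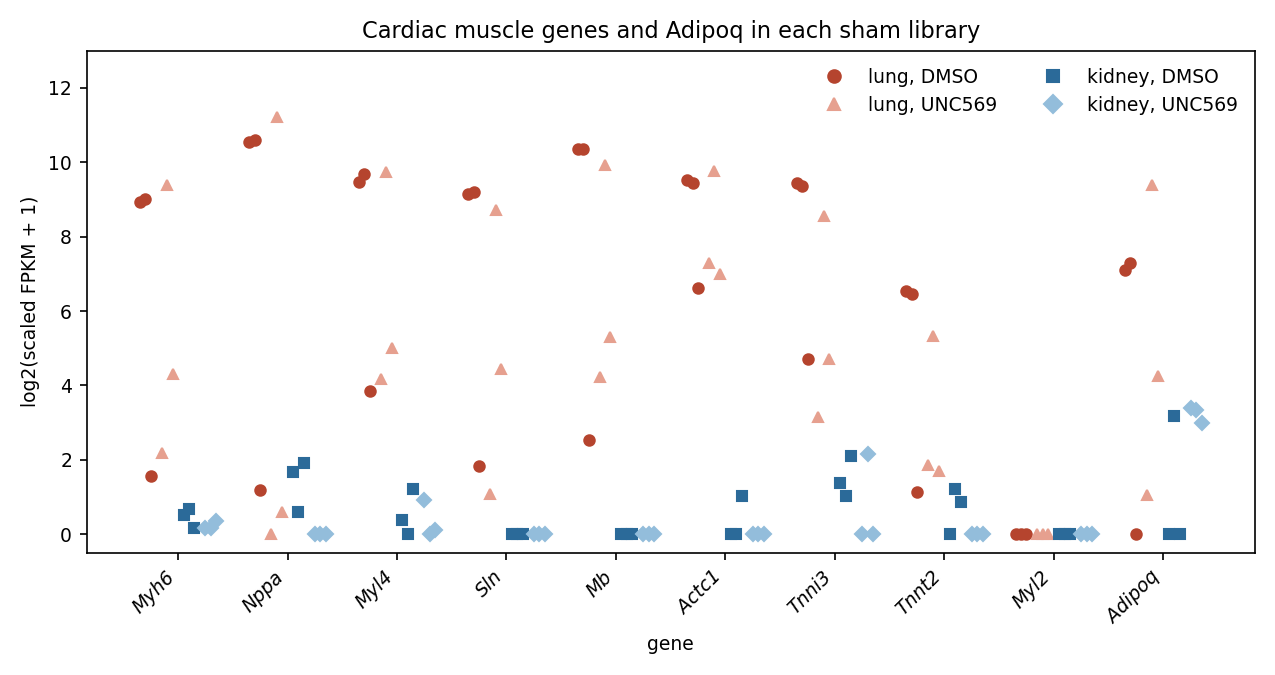
Level of 9 cardiac muscle genes and of Adipoq as log2(scaled FPKM + 1) on the y axis in each of the 12 sham libraries, with circles for lung with DMSO, triangles for lung with UNC569, squares for kidney with DMSO and diamonds for kidney with UNC569. In each gene but Myl2, which is at 0 in the DMSO libraries, lung libraries 0 and 1 with DMSO sit far above library 2, and 1 UNC569 lung library stands near them.

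The proximal tubule gave the largest differences toward kidney. Of 37 of its transporters that were tested, 34 were higher in kidney, 32 of them at least 8-fold, and 1 was higher in lung, with a median log2 of -5.79; of all genes tested 16.0% were higher in kidney. Slc34a1, the phosphate carrier that parathyroid hormone controls, was at 0, 0.288 and 0.239 in lung and 2968, 3099 and 3878 in kidney (-11.46 ± 0.18, adjusted p = 1.4e-08). The urate carrier Slc22a12 was at 0, 0.493 and 0 and 739, 772 and 1174 (-9.58 ± 0.25, 8.3e-08). The glucose carrier Slc5a2, the target of gliflozin drugs, was at 11.5, 7.28 and 7.68 and 396, 497 and 601 (-5.67 ± 0.22, 6.5e-07). Kidney libraries differed by less than 2-fold among themselves in these genes.

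Slc22a6, the organic anion carrier that brings drugs into the tubule cell, was at 0.156, 0 and 0 in lung and 215, 167 and 218 in kidney (-7.57 ± 0.19, adjusted p = 7.1e-08).

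The amino acid carriers of the brush border were equally one-sided. Slc6a18, a carrier of neutral amino acids, was at 0 in every lung library and at 242, 342 and 253 in kidney (-8.11 ± 0.19, adjusted p = 5.8e-08). Slc7a13, a partner of the cystine carrier system, was at 0.267, 0 and 0 and 467, 439.5 and 379.8 (-8.63 ± 0.18, 3.9e-08). The gene that went the other way was Slc3a2, the heavy chain of several amino acid carriers in many tissues, at 114, 109 and 141 in lung and 84.1, 69.1 and 101 in kidney (0.53 ± 0.19, 0.034), its sign turned with median-of-ratios factors (-0.38), and without any 1 library except kidney library 2 its adjusted p was 0.05 to 0.114.

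Uptake of filtered protein and the brush border gave 18 of 22 genes higher in kidney and 1 in lung, with a median log2 of -4.66. Kap, the androgen-regulated protein of mouse proximal tubule, was at 3.10, 6.80 and 1.86 in lung and 63849.5, 66612 and 59711 in kidney (-13.78 ± 0.33, adjusted p = 5.8e-08), the largest difference toward kidney. The uptake receptors megalin, Lrp2, and cubilin, Cubn, were at 109.9, 91.4 and 123 and at 32.4, 25.3 and 32.3 in kidney; megalin was at 4.22, 3.72 and 4.35 in lung (-4.41 ± 0.18, 7.2e-07) and cubilin at most at 0.0435. The peptidase Mep1a was at 0.459, 0.816 and 0 and 663, 688 and 809, the glutathione-cleaving enzyme Ggt1 at 1.32, 2.06 and 3.19 and 1165, 1951 and 1847, and collectrin, Tmem27, the chaperone of amino acid carriers, at 0.725, 0.623 and 0 and 1524, 1197 and 1245. Mme, the peptidase neprilysin, was higher in lung, at 12.8, 12.9 and 25.5 against 8.73, 7.22 and 6.60 (1.02 ± 0.29, 0.012), but not past the threshold with median-of-ratios factors (0.18, adjusted p = 0.559) or without kidney library 2 (0.95, 0.0504).

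The tubule also makes and breaks down metabolites. Of 22 genes of ammonia and amino acid metabolism, 19 were higher in kidney and 1 in lung (median log2 -5.10), and of 11 genes of gluconeogenesis 10 were higher in kidney and 1 in lung (median -5.57). Miox, the oxygenase of inositol, was at 0.391, 1.91 and 0 in lung and 3405, 4929 and 4924 in kidney (-11.42 ± 0.37, adjusted p = 2.3e-07). Fbp1, the fructose bisphosphatase of glucose synthesis, was at 0.763, 0 and 0 and 2166, 2317 and 2934 (-10.99 ± 0.25, 5.6e-08). G6pc, which releases free glucose, was at 0 in lung and at 254, 151 and 277 in kidney. The rate-setting enzyme Pck1 was at 49.4, 46.3 and 0.323 in lung and 1317, 766 and 1639 in kidney (-6.34 ± 1.26, 0.0022); in lung it was high in the close pair, as the fat genes were. Its mitochondrial form Pck2 was higher in lung, at 18.7, 15.9 and 23.4 against 8.10, 8.23 and 6.85 (1.21 ± 0.21, 0.001), as was the arginase Arg2 at 4.45, 2.55 and 2.56 against 0.327, 1.08 and 2.07 (1.01 ± 0.35, 0.03). Neither passed with median-of-ratios factors (0.36 and 0.45), and Arg2 did not pass with the pair averaged (0.059) or without lung library 0, kidney library 0 or kidney library 1 (0.0801 to 0.108).

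Most energy genes were higher in kidney under both scalings. Of 41 nuclear genes of the respiratory chain, 36 were higher in kidney and 0 in lung with a median log2 of -1.71 (41 and 0 with median-of-ratios factors), and of 12 mitochondrially encoded genes tested 11 were higher in kidney. The ATP synthase subunit Atp5b was at 694, 697 and 442 in lung and 4276, 4602 and 4831 in kidney (-2.93 ± 0.22, adjusted p = 1.5e-05). The oxidase subunit mt-Co1, read from mitochondrial DNA, was at 25198, 23454 and 20869 and 62739, 62421 and 36296 (-1.18 ± 0.30, 0.0074), and kidney library 2 was the lowest kidney library; without the filter on low values its adjusted p was 0.171. Of 28 genes of fatty acid oxidation, 22 were higher in kidney and 1 in lung, with a median of -1.47. Acsm2, an acyl-CoA synthetase of the tubule, was at most at 0.0387 in lung and at 1126, 1198 and 1407 in kidney (-10.26 ± 0.16, 1.4e-08), and the medium-chain dehydrogenase Acadm at 111, 96.9 and 64.9 and 574, 616 and 628 (-2.76 ± 0.21, 1.7e-05).

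Subunit isoforms of the oxidase split by organ. The general form Cox4i1 was higher in kidney, at 392, 728 and 774 against 195, 140.2 and 88.2 in lung (-2.17 ± 0.35, adjusted p = 0.00073). Its alternative form Cox4i2, known from lung and from oxygen sensing, was higher in lung, at 64.5, 45.6 and 102 against 2.80, 4.07 and 0 (4.67 ± 0.59, 0.00021). The heart and muscle form Cox6a2 was at 73.1, 82.6 and 25.6 in lung and was high in the libraries with cardiac genes. Its difference was 4.31 ± 0.41 (adjusted p = 5.1e-05), and 4.05 ± 0.45 (0.00029) with the pair averaged.

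Segments beyond the proximal tubule held further kidney genes. Of 16 thick ascending limb genes tested, 14 were higher in kidney and 2 in lung (median log2 -4.73), the latter the factors Irx1 and Irx2 described below. Umod, uromodulin, the main protein of normal urine, was at 0.149, 0 and 0 in lung and 365, 441 and 549.6 in kidney (-8.74 ± 0.20, adjusted p = 5.5e-08). The salt carrier Slc12a1, the target of loop diuretics, was at 0, 0 and 0.216 and 112, 201 and 93.4 (-6.92 ± 0.30, 9.8e-07). Of 15 genes of the distal convoluted and connecting tubule, 10 were higher in kidney and 4 in lung (median -3.95; 11 and 1 with median-of-ratios factors). The thiazide target Slc12a3 was at 0, 0 and 0.276 and 81.5, 122 and 139.9 (-6.70 ± 0.25, 4.8e-07), and tissue kallikrein, Klk1, at 0.470, 2.12 and 0.554 and 2128, 1929.5 and 2570.1 (-10.16 ± 0.29, 1.3e-07). Among the 4 higher in lung was the kinase Wnk1, at 167, 174 and 232 against 124, 127 and 108 (0.66 ± 0.17, 0.0091), whose sign turned with median-of-ratios factors (-0.25). The other 3 were the prostaglandin synthase Ptgs1 (1.60), the sodium-calcium exchanger Slc8a1 (1.11) and the magnesium channel Trpm6 (1.32), which stayed positive with median-of-ratios factors; there Ptgs1 alone passed.

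The collecting duct list held genes of both directions, with 8 of 17 higher in kidney and 6 in lung (median log2 -0.94). Over all genes tested 16.0% were higher in kidney and 56.4% in lung. Aqp2, the water channel that vasopressin moves to the membrane, was at 3.06, 5.29 and 1.60 in lung and 439, 863 and 699 in kidney (-7.31 ± 0.36, adjusted p = 2.0e-06). The enzyme that shields the mineralocorticoid receptor from cortisol, Hsd11b2, was at 2.44, 2.28 and 2.36 and 301, 312 and 382 (-6.62 ± 0.16, 6.1e-08). The epithelial sodium channel, which clears fluid from airspaces and reclaims salt in the collecting duct, was higher in lung in all 3 subunits. Its alpha subunit Scnn1a was at 209, 209.7 and 231 and 51.7, 52.2 and 74.8 (1.86 ± 0.18, 5.5e-05), beta, Scnn1b, at 105, 109.9 and 103 and 47.9, 53.7 and 56.3 (1.00 ± 0.14, 0.0004), and gamma, Scnn1g, at 89.6, 87.5 and 134 and 16.6, 20.9 and 16.97 (2.43 ± 0.21, 3.1e-05). All 3 stayed positive with median-of-ratios factors, at 0.96, 0.09 and 1.54, where the beta subunit did not pass (0.57). The other 3 higher in lung were the matrix protein Npnt (2.40), the factor Elf5 (3.01) and the mineralocorticoid receptor Nr3c2 (1.07), the last of which did not pass with median-of-ratios factors (0.30).

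Intercalated cells move acid. Of their 18 genes, 14 were higher in kidney and 1 in lung (median log2 -3.85). The ammonia carrier Rhcg was at 0 in every lung library and at 113, 114 and 143 in kidney (-6.95 ± 0.19, adjusted p = 9.5e-08), and the factor of these cells, Foxi1, at 0 and 27.6, 30.9 and 34.1 (-4.99 ± 0.20, 6.5e-07). The proton pump subunit Atp6v1c2 was called higher in lung, at 18.2, 16.8 and 12.3 against 9.81, 12.2 and 7.23 (0.65 ± 0.25, 0.041), with a sign that turned under median-of-ratios factors (-0.19). Its adjusted p was 0.12 with the pair averaged and 0.0827 to 0.137 without lung library 0 or 1 or kidney library 0 or 2.

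Podocyte and glomerular genes were split between the organs. Of 24, 9 were higher in lung and 5 in kidney, beside 56.4% and 16.0% of all genes tested, with a median log2 of 0.23, below that of all genes. With median-of-ratios factors 5 were higher in lung and 12 in kidney, beside 31.3% and 32.1%. Nephrin, Nphs1, a protein of the slit diaphragm, was at 0 in lung and 5.81, 6.495 and 6.87 in kidney (-2.88 ± 0.20, adjusted p = 1.2e-05). The factor Wt1 was at 1.47, 1.18 and 3.39 and 12.8, 15.1 and 13.7 (-2.37 ± 0.29, 0.00019), whereas Tcf21, a factor of podocytes and of lung fibroblasts, was higher in lung, at 277, 284 and 502 against 30.9, 49.5 and 50.8 (2.97 ± 0.29, 5.3e-05). The collagen IV chain Col4a3, part of the basement membrane of both glomerulus and alveolus, did not pass, at 25.7, 26.3 and 64.8 and 36.03, 37.2 and 32.1 (0.01 ± 0.34, 0.98); it was on the side of kidney with median-of-ratios factors (-0.88, 0.0361) and without lung library 2 (-0.42, 0.0357).

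Of 12 genes of the renin-angiotensin system, 3 were higher in lung and 6 in kidney, beside 56.4% and 16.0% of all genes tested. With median-of-ratios factors 2 were higher in lung and 8 in kidney, beside 31.3% and 32.1%. Renin, Ren1, which starts the cascade, was at 0 in every lung library and at 19.5, 50.0 and 36.6 in kidney (-5.09 ± 0.33, adjusted p = 8.4e-06); the mouse genome can carry the near copy Ren2, with which it can share reads. Angiotensinogen, Agt, was at 2.83, 5.54 and 1.95 and 71.1, 98.5 and 97.9 (-4.41 ± 0.31, 1.1e-05). The converting enzyme Ace was higher in lung, at 198, 208 and 381 against 54.4, 65.7 and 79.9 (1.91 ± 0.27, 0.00041). Klotho, Kl, the coreceptor of the phosphate hormone FGF23, was at 0.300, 0.518 and 0.713 and 179, 114 and 153 (-6.62 ± 0.22, 2.8e-07), and Pth1r, the receptor of parathyroid hormone, at 7.43, 5.80 and 7.31 and 723, 793 and 1008 (-6.74 ± 0.18, 9.4e-08). Of the 9 hormone and vitamin D genes tested, 7 were higher in kidney and 1 in lung, the growth factor receptor Fgfr1 (1.74).

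Of 28 transcription factors of kidney tested, 20 were higher in kidney, 12 of them at least 8-fold, and 4 in lung, with a median log2 of -2.40. Hnf4a, the factor of proximal tubule identity, was at most at 0.0883 in lung and at 275, 222 and 332 in kidney (-8.05 ± 0.20, adjusted p = 6.7e-08). Pax8 and Pax2, which specify the nephron, were at 0 in every lung library and at 64.4, 54.8 and 73.6 and 15.1, 28.4 and 21.7 in kidney. The 4 higher in lung were the Iroquois factors Irx1, Irx2 and Irx3 and the mesoderm factor Osr1. Irx1 was at 116, 107 and 116 and 25.1, 26.9 and 33.9 (1.96 ± 0.16, 2.7e-05), Irx2 at 92.3, 113 and 79.3 and 14.4, 16.6 and 12.8 (2.62 ± 0.19, 1.4e-05), and Osr1 at 28.7, 32.1 and 30.95 and 3.07, 3.59 and 4.78 (2.73 ± 0.20, 1.5e-05). Irx3, at 0.92, was near the median of all genes and did not pass with median-of-ratios factors (0.02).

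**Figure D4:**
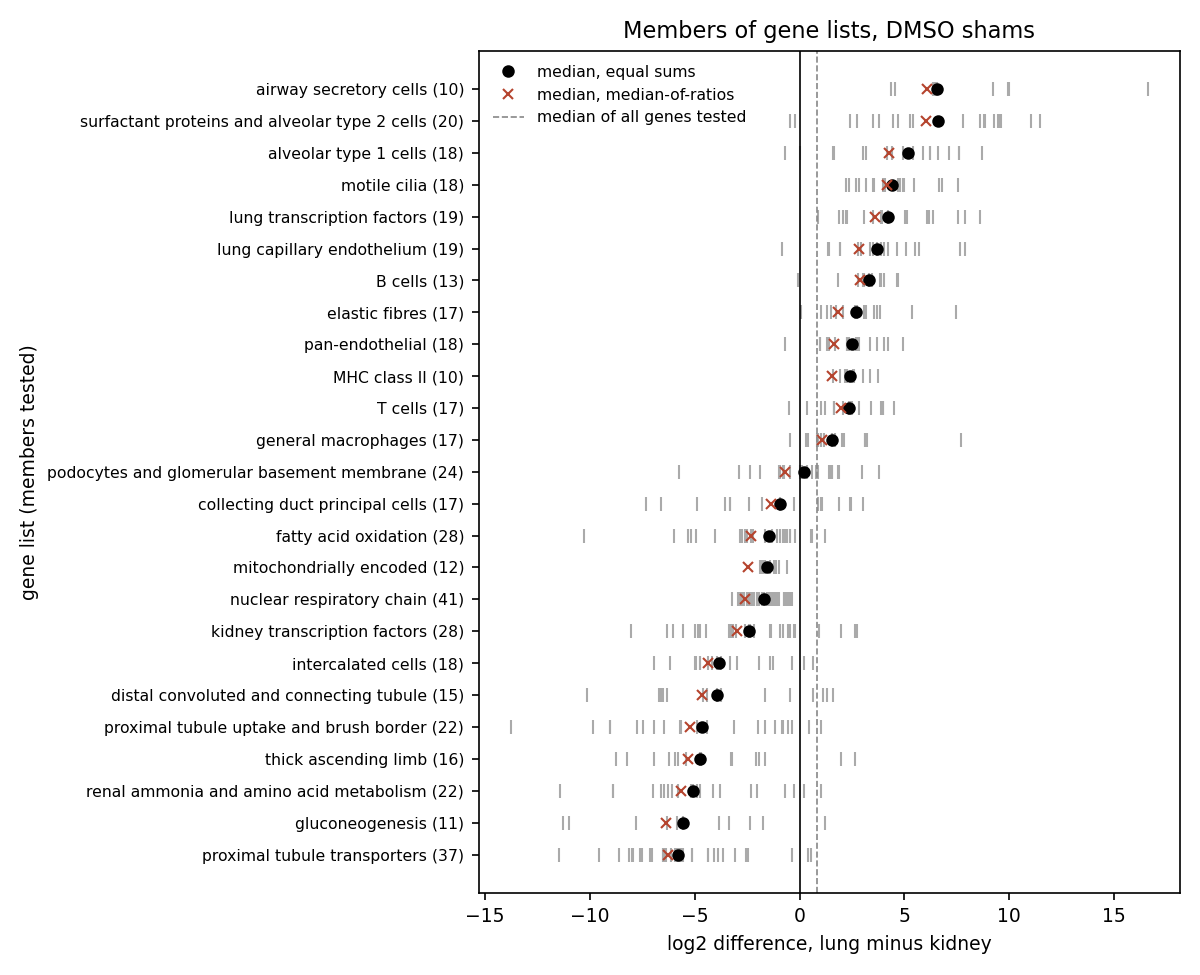
Log2 difference of lung minus kidney (x axis) for the members tested of 25 gene lists (y axis, number tested in brackets), with grey ticks for genes, black dots for list medians with equal sums and crosses for list medians with median-of-ratios factors; the dashed line is the median of all genes tested, 0.83. The airway secretory, motile cilia and alveolar type 1 and type 2 lists have medians above 4 and proximal tubule lists below -4 under both scalings, while the podocyte list changes sign, from 0.23 to -0.68.

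Motif letters were counted in the 250 bases before the RefSeq starts, on both strands, as a description. The motifs reported here were CTCAAG (core of the NKX2-1 site) and GTTGCCA (part of the RFX X-box), which do not overlap in full. Among 27025 genes of the promoter table, 15.2% held the first and 4.19% the second. Of 81 genes in the lung lists that were at least 8-fold higher in lung, 55 had a promoter in the table, and of those 13 (23.6%) and 2 (3.64%) held them. Of 128 such genes of the kidney lists, 94 had a promoter, and 12 (12.8%) and 3 (3.19%) held them. This cut was made on log2 values rounded to 2 decimals, which gave 12 intercalated cell genes where the unrounded values gave 11. The NKX2-1 core was in 2 of 12 alveolar type 2 genes with a promoter and 2 of 12 alveolar type 1 genes (16.7% each). Over the lung lists it ran from 0 of 4 lung capillary genes to 2 of 5 alveolar macrophage genes (40%). Over the kidney lists it ran from 0 of 14 ammonia and amino acid genes to 2 of 7 thick ascending limb genes (28.6%). The X-box part was in 2 of 8 cilia genes with a promoter (25%), 2 of 9 kidney transcription factors (22.2%) and 1 of 8 intercalated cell genes (12.5%). A match is only a run of letters, and no binding was measured; several of the leading genes, Scgb1a1, Sftpc and Foxj1 among them, were not among the matched promoters.

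Gene families used in both organs showed different members in each. Of 9 aquaporins tested, Aqp5 was higher in lung and 5 were higher in kidney, namely Aqp6 (-4.94), Aqp7 (-2.71), Aqp11 (-2.49) and the collecting duct channels Aqp2 and Aqp3, the latter at 11.0, 19.4 and 1.61 in lung and 72.7, 83.9 and 96.6 in kidney (-3.30 ± 0.65, adjusted p = 0.0022). Aqp1, the channel of capillaries and of the proximal tubule, was abundant in both, at 381, 363 and 896 and 632, 739.6 and 857, and did not pass (-0.56 ± 0.34, 0.17); it was called higher in kidney with median-of-ratios factors (-1.48, 0.00353) and without lung library 2 (-0.98, 0.00278). Of 16 claudins, which set what passes between cells, 6 were higher in lung and 6 in kidney (5 and 7 with median-of-ratios factors). The shares of all genes tested were 56.4% and 16.0% (31.3% and 32.1% with those factors). Cldn18, the claudin of alveolar epithelium, was at 232, 213 and 447 and 0.679, 0.264 and 0.413 (7.61 ± 0.30, 6.0e-07), and Cldn2, the leaky claudin of proximal tubule, at 3.12, 4.60 and 0.454 and 173, 119.5 and 181 (-5.60 ± 0.46, 2.6e-05). Of 12 carbonic anhydrases, 8 were higher in kidney and 2 in lung under both scalings, the latter Car8 (3.82) and Car13 (1.67); Car12 was at most at 0.756 in lung and at 108, 90.7 and 113 in kidney.

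Enzymes that handle foreign compounds also went both ways, with 10 of 31 higher in lung and 15 in kidney (8 and 17 with median-of-ratios factors). Over all genes tested 56.4% were higher in lung and 16.0% in kidney. Beside Cyp2f2, the lung held Cyp2b10, at 132, 122 and 125 against at most 0.119 in kidney (6.94 ± 0.18, adjusted p = 7.1e-08), and the retinal dehydrogenase Aldh1a1, at 975, 969 and 490.2 against 2.01, 2.01 and 3.63 (7.80 ± 0.31, 6.4e-07). The kidney held the epoxygenase Cyp2j5, at most at 0.140 in lung and at 552, 428 and 473 in kidney (-8.85 ± 0.17, 2.9e-08), and the fatty acid hydroxylase Cyp4a10, at 0 in lung and 134, 138 and 146 in kidney. Cyp4b1, known as a lung P450, was higher in kidney, at 1943, 2009.8 and 2541 against 409, 445 and 545 in lung (-2.21 ± 0.19, 2.7e-05).

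Hox genes differed by their place in the cluster. Of the genes with paralog numbers 9 to 13, 16 were measured and 10 tested. All 10 were higher in kidney, beside 16.0% of all genes tested. None of the 10 reached 1 scaled FPKM in more than 1 lung library. They passed the filter on low values through kidney, so the direction of this count was set by the filter. In every lung library 14 of the 16 were listed at 0. Hoxa10 was at 0 in every lung library and at 58.4, 54.4 and 73.3 in kidney (-5.97 ± 0.20, adjusted p = 2.8e-07), and Hoxd9 at 1.35, 0.874 and 0.415 and 49.4, 55.5 and 66.6 (-4.97 ± 0.25, 2.0e-06). All 5 genes tested with numbers 7 and 8 were also higher in kidney, the largest of them Hoxd8 at 0.553, 0.461 and 1.12 in lung and 101, 66.0 and 70.6 in kidney (-5.54 ± 0.25, 1.2e-06). Of these, Hoxc8 and Hoxd8 likewise passed the filter through kidney.

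Toward the other end of the clusters the direction depended on the cluster. Of numbers 5 and 6, 6 genes were tested, with 1 higher in lung and 3 in kidney. The gene of numbers 5 and 6 that was higher in lung was Hoxa5, a factor needed for lung and airway growth, at 61.0, 56.4 and 144 against 21.2, 23.6 and 18.6 (1.86 ± 0.34, adjusted p = 0.0015). Hoxa4 was at 20.8, 16.1 and 41.6 and 4.92, 4.76 and 5.15 (2.08 ± 0.33, 0.00065), and Hoxa2 and Hoxa3 were also higher in lung (0.95 and 0.99). Neither of the latter passed with median-of-ratios factors (0.19 and 0.15), nor did Hoxa2 without kidney library 0 or 2 (0.0834 and 0.0536) or Hoxa3 without lung library 2 or kidney library 0 or 2 (0.0769 to 0.1). In the Hoxd cluster Hoxd4 was at 1.65, 0.000133 and 0.381 in lung and 60.6, 58.2 and 56.3 in kidney (-5.27 ± 0.34, 8.3e-06), and Hoxd3 at 0.709, 1.22 and 2.68 and 37.1, 54.8 and 53.9. The other genes below number 7 that were higher in kidney were Hoxb3 (-1.46), Hoxc4 (-1.47), Hoxc5 (-1.73), Hoxb6 (-2.40) and Hoxc6 (-5.11). Hoxb2, at 0.13, and Hoxb4, at -0.16, did not pass, and were higher in kidney with median-of-ratios factors (-0.73 and -1.03).

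**Figure D5:**
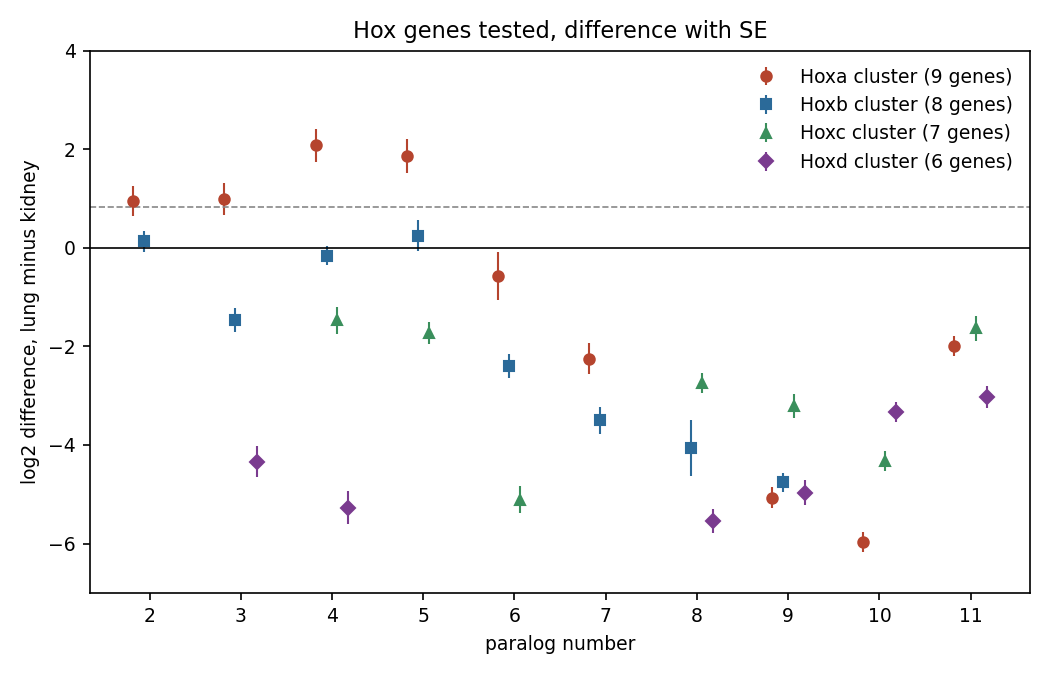
Log2 difference of lung minus kidney with its SE (y axis) for Hox genes tested with paralog numbers 2 and up, by paralog number (x axis), with a marker for each cluster; the solid line is 0 and the dashed line the median of all genes, 0.83. Every gene tested from number 7 up lies below 0; the genes above the dashed line are all of the Hoxa cluster, and with median-of-ratios factors Hoxb2 and Hoxb5 turned to the side of kidney.

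The receptors and ligands that the study is about were present in both organs. Mertk was at 12.9, 16.3 and 29.2 in lung and 16.1, 17.2 and 12.6 in kidney (0.26 ± 0.30, adjusted p = 0.46), and the groups overlapped. Its relative Axl was higher in lung, at 38.7, 42.7 and 61.6 against 12.6, 18.2 and 12.1 (1.66 ± 0.24, 0.00041), as was Tyro3 at 20.7, 20.4 and 8.55 against 1.45, 2.82 and 1.81 (2.47 ± 0.36, 0.00044). Of the ligands that bridge these receptors to dying cells, Pros1 was higher in lung, at 47.5, 50.6 and 74.8 against 9.83, 9.87 and 8.49 (2.47 ± 0.21, 3.1e-05), and Gas6 did not pass, at 208, 208 and 309 and 180.2, 191 and 238 (0.23 ± 0.21, 0.33). With median-of-ratios factors Axl, Tyro3 and Pros1 stayed higher in lung, and Mertk and Gas6 turned negative (-0.61, adjusted p = 0.084, and -0.68, 0.0092).

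Some abundant genes were close to equal. Of 73 genes at 500 scaled FPKM or more in both organs, the nearest were the RNA-binding protein Pcbp1 at 584, 529 and 579 and 554, 533 and 626 (-0.02 ± 0.15), the glycoprotein Bsg (-0.03), the elongation factor Eef2 (0.05) and the ribosomal protein Rps19 (-0.13), with 2 genes named only by number, Gm20721 (-0.09) and Gm10076 (0.11). With median-of-ratios factors all 6 were lower in lung, at -0.80 to -1.04. Common reference genes were not: Gapdh, a glycolytic enzyme, was at 555, 571 and 403 in lung and 3407, 3292 and 3602 in kidney (-2.77 ± 0.18, adjusted p = 9.2e-06), and Actb, cytoplasmic actin, at 2414, 2446 and 2901 and 931, 1008 and 884 (1.46 ± 0.16, 0.00011).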

How the data were processed

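Whole lung and whole kidney RNA was extracted with an RNA mini kit and made into TruSeq v2 libraries, sequenced as 100-base reads on a HiSeq 2000, per the labels' protocols; the kit does not mark strand. The authors deposited FPKM values per gene and library in 1 table for lung and 1 for kidney, each normalised on its own; how FPKM was computed is not given in the sources used here. FastQC, Trim Galore, STAR and edgeR and the builds mm10 and hg38 are named, without roles, in the submitters' processing notes.

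The tables were joined on gene ID (38277 genes; 94.9% of IDs had a name in the reference, whose names were used only to check symbols) and each column was scaled to a sum of 1000000. Genes with at least 1 scaled FPKM in 3 of the 6 libraries were tested on log2(scaled FPKM + 1) with limma 3.58.1 (trend) in R 4.3.3, with Benjamini-Hochberg adjustment over all genes tested; fold changes on this scale understate changes of low genes. The script was tested on simulated data. Replicates were not tied to animals by the labels. The summed cardiac level was compared by an exact permutation test. Alternatives were a pseudocount of 0.1, no filter, no trend, median-of-ratios factors, the deposited values without rescaling, sums without the most abundant 100 genes of either organ, leaving out each library, leaving out cardiac, skeletal and fat genes, and the UNC569 shams; averaging lung libraries 0 and 1 was chosen after the data were seen.

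Genes were named by a rule: the 15 largest differences in each direction among genes at 100 scaled FPKM or more whose groups did not overlap, the 15 most abundant genes of each organ, up to 8 members of each list by level and any member against its list's side, the MERTK family, the Hox genes, up to 10 factors and the 6 abundant genes nearest to equal. Not every gene the rule allows is named, and some results are not reported here. The members and lists were chosen with earlier results of these data known. Promoters are 250 bases before the RefSeq start on GRCm38.p6.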

Additional observations from a re-analysis of the deposited data

Results flagged for a closer look

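The organ difference was also fitted in all 12 sham libraries with a term for UNC569 against DMSO in each organ. The organ difference was unlike between the DMSO and the UNC569 shams in 181 of 16721 genes (1.08%) at an adjusted p under 0.05 in limma. The named genes among these 181 are given with their values. What set the DMSO and UNC569 groups apart in them was not tested. Organ and table cannot be told apart here either.

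Among them were 5 clock genes. Dbp, a clock output factor, was at 494, 487 and 669 in DMSO lung, 37.1, 38.9 and 57.9 in DMSO kidney, 481, 514 and 489 in UNC569 lung and 318, 359 and 339 in UNC569 kidney. Its organ difference was larger with DMSO than with UNC569 by 3.06 ± 0.25 (adjusted p = 0.00075). The same held for the repressor Nr1d1 (1.38 ± 0.19, 0.01), for Per3, a period protein (1.64 ± 0.23, 0.01), and for Tef, another output factor (1.20 ± 0.21, 0.027). For Arntl, the activator that peaks in antiphase to these, the difference went the other way (-2.00 ± 0.29, 0.014), with 1.43, 1.76 and 1.70 in DMSO lung, 5.04, 5.95 and 6.55 in DMSO kidney, 1.88, 1.18 and 2.004 in UNC569 lung and 0.847, 0.719 and 0.626 in UNC569 kidney. The time of day at which tissue was taken is not given in the labels used here.

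The chaperones Hspb1 (-2.60 ± 0.29, adjusted p = 0.0028) and Hspa8 (-1.51 ± 0.22, 0.014) had a smaller lung-minus-kidney value with DMSO than with UNC569. The matrix gene Mgp stood 3.32 higher in lung with DMSO and 5.52 with UNC569 (difference -2.20 ± 0.43, adjusted p = 0.041); its kidney values were 432, 731 and 566 with DMSO and 117, 194 and 88.0 with UNC569. The endothelial Emcn was lower in lung with DMSO (-0.71) and higher in lung with UNC569 (1.25; difference -1.96 ± 0.35, adjusted p = 0.029), with 33.5, 34.6 and 33.3 in UNC569 lung and 15.2, 18.1 and 9.18 in UNC569 kidney.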

How the results depend on the processing

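No paired analysis was possible because the columns name a group and carry numbers that match no sample label; none ties a lung library to a kidney library.

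The number of genes higher in lung was 8694 and of genes higher in kidney 2465; with median-of-ratios scaling they were 4772 and 4892. Genes at least 8-fold higher in lung numbered 1011, and 2171 with a pseudocount of 0.1, 506 with median-of-ratios scaling and 558 from the deposited FPKM without rescaling. Genes at least 8-fold higher in kidney numbered 519, and 797 with median-of-ratios scaling. Leaving out each library in turn gave 8237 to 8863 for genes higher in sham lung than sham kidney, 2130 to 2502 for genes higher in sham kidney than sham lung, 971 to 1074 for genes at least 8-fold higher in lung, 503 to 543 for genes at least 8-fold higher in kidney and 4328 to 8322 for the lung minus kidney difference of the mean summed cardiac level. The other settings kept these 4 counts within 1.5 times.

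Of 175 named genes that were called, 149 kept direction and call under every setting run, 25 lost the call in at least 1 and 7 changed sign in at least 1. Sign changes are listed for named genes that passed with or without the setting. With median-of-ratios scaling the sign turned for Atp6v1c2 (-0.19), Col4a3 (-0.88), Csf1r (-0.55), Eef2 (-0.87), Gas6 (-0.68), Gm10076 (-0.80), Hoxb2 (-0.73), Slc3a2 (-0.38) and Wnk1 (-0.25); without lung replicate 2 it turned for Col4a3 (-0.42; -0.42 to 0.23 over the libraries left out). In the UNC569 shams taken alone it turned for Abca3 (0.04), Alb (0.10), Arntl (0.62), Emcn (1.25) and Rps19 (0.76). The causes were not tested. The number of reads behind the FPKM values is unknown and 3 libraries a group limit the precision.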

Other observations

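Of 14 clock genes tested, 11 were higher in lung and 1 in kidney (9 and 2 with median-of-ratios factors). Over all genes tested the shares were 56.4% and 16.0% (31.3% and 32.1% with those factors). Dbp was at 494, 487 and 669 in lung and 37.1, 38.9 and 57.9 in kidney (3.61 ± 0.22, adjusted p = 5.9e-06), Nr1d1 at 300.3, 290.4 and 351 and 27.4, 27.6 and 35.6 (3.34 ± 0.17, 2.1e-06), and the cryptochrome Cry2 at 58.9, 64.1 and 52.1 and 5.13, 5.10 and 8.13 (3.08 ± 0.21, 1.1e-05). The activator Arntl was the 1 gene higher in kidney, at 1.43, 1.76 and 1.70 in lung and 5.04, 5.95 and 6.55 in kidney (-1.38 ± 0.21, 0.00054).

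Smooth muscle genes were higher in lung in 11 of 13 cases, beside 56.4% of all genes tested (10 with median-of-ratios factors, beside 31.3%). Lung libraries 0 and 1 were above library 2 in most of the smooth muscle genes. Desmin, Des, an intermediate filament, was at 357, 352 and 138 in lung and 16.2, 23.02 and 21.5 in kidney (3.63 ± 0.36, adjusted p = 6.3e-05). Actg2, an actin of visceral smooth muscle, was at 86.6, 79.9 and 28.2 and 0.635, 1.69 and 1.23 (4.79 ± 0.43, 3.7e-05). With the pair averaged Des was at 3.41 ± 0.39 (0.00034) and Actg2 at 4.54 ± 0.47 (0.00023). In the UNC569 lungs Des was at 173, 321 and 132, highest in the library with the high cardiac sum. The part of cardiac muscle in Des was not tested. Of 8 neutrophil genes tested all were higher in lung, beside 56.4% of all genes (7 of 7 with median-of-ratios factors, beside 31.3%). They were led by the calcium-binding protein S100a9 at 150.3, 129 and 34.1 and 3.19, 0 and 4.71 (4.94 ± 0.74, 0.00053). The 14 genes of the list summed to 84.2 to 303 in lung and 3.92 to 11.0 in kidney. The filter on low values therefore favoured members high in lung. Ribosomal protein genes depended on the scaling, with 6 of 19 higher in lung and 2 in kidney with equal sums and 1 and 11 with median-of-ratios factors.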
